A study of Callithrix jacchus with 4 samples.

Results

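Parvalbumin interneurons of marmoset cortex were described at a neonatal age and in the adult, as the nuclei that the deposited annotation calls Inh_Pvalb. They were 2245 of 36592 nuclei, 6.14% of the total, with 1227 from neonates (D0) and 1018 from adults (Y2). The source was somatosensory cortex of wild-type marmosets (Callithrix jacchus), small primates of the New World, at age 0 (D0) and at 2 years (Y2). No treatment was given. There were 2 libraries per age, each from 1 animal, and nuclei were profiled by single-nucleus RNA sequencing (snRNA-seq), which reads the RNA inside isolated nuclei. The sampled tissue is named unevenly in the labels, whose protocol text also mentions motor cortex and cerebellum.

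Parvalbumin interneurons are GABAergic neurons of local circuits, and most are fast-spiking basket or chandelier cells that inhibit the cell body or the start of the axon of projection neurons. They arise in the medial ganglionic eminence, as do the somatostatin interneurons (Inh_Sst), and both lineages depend on the transcription factor LHX6. Vip interneurons (Inh_Vip) arise in the caudal ganglionic eminence and mainly inhibit other interneurons. Parvalbumin, a calcium-binding protein encoded by PVALB, is known to appear late, as these cells mature. GAD1 encodes an enzyme that makes GABA. Only labels of nuclei were analysed here, with no gene values, so PVALB, LHX6 and GAD1 could not be checked in either age, and Inh_Pvalb is used as the name the authors gave.

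D0 replicates 1 and 2 held 431 and 796 Inh_Pvalb nuclei among 6482 and 14142, and Y2 replicates 1 and 2 held 339 and 679 among 5622 and 10346. Replicate 1 of each age belonged to batch 1 and replicate 2 to batch 2 in the deposited batch column, which allowed the ages to be compared batch by batch. The numbers appended to the nucleus names, 1 per library, were 1, 2, 4 and 5, and 3 did not occur. The study's methods describe more libraries than were analysed here. Barcodes found in more than 1 library were carried by 68 Inh_Pvalb nuclei (3.03%) and by 3.57% of all nuclei. For 2 barcodes, both in the D0 libraries, the nuclei that shared the barcode were Inh_Pvalb in both.

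The first question was where Inh_Pvalb nuclei lay among the annotated clusters. They filled 2 clusters and shared neither with another type: cluster 13 held all 1227 D0 nuclei and cluster 14 all 1018 Y2 nuclei. The count of D0 nuclei in the Y2 cluster was 0, which allows up to 0.244% of them, and the count of Y2 nuclei in the D0 cluster was 0, which allows up to 0.295%. Both limits pool the nuclei of 2 animals and cover counting error only. Inh_Vip had the same layout with 1 cluster per age, whereas Inh_Sst had 2 clusters at D0 and 1 at Y2. The annotation thus gave no finer division of parvalbumin interneurons, such as basket and chandelier cells, at either age. The authors clustered all libraries together after correcting for the batch, and 3 of the 34 clusters, of CPN (cluster 0), CthPN (cluster 17) and OPC (cluster 18), held nuclei of both ages.

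Both animals of each age contributed to the Inh_Pvalb cluster, in shares within 1.18-fold of each other. At D0 cluster 13 made up 6.65% of replicate 1 and 5.63% of replicate 2, a 1.18-fold difference. Their 95% counting intervals (6.07% to 7.28% and 5.26% to 6.02%) did not overlap. At Y2 cluster 14 made up 6.03% and 6.56%, a 1.09-fold difference. Ranked by the size of the log2 ratio of both shares, cluster 14 (0.12) was the most even of the 17 clusters led by Y2, and cluster 13 (-0.24) was the 7th most even of the 17 led by D0. Over neurons only the values were 0.17 and -0.12, ranks 1 and 4. Other interneuron clusters were about as even: at Y2 Inh_Lamp5 cluster 33 (0.16) and Inh_Sst cluster 22 (0.22) ranked 2 and 3. At D0 Inh_Sst cluster 11 (-0.14) was more even than cluster 13. In 8 of 17 Y2 clusters and 13 of 17 D0 clusters the shares lay within 2-fold of each other. This is a description with 1 value per cluster and no test.

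**Figure D1:**
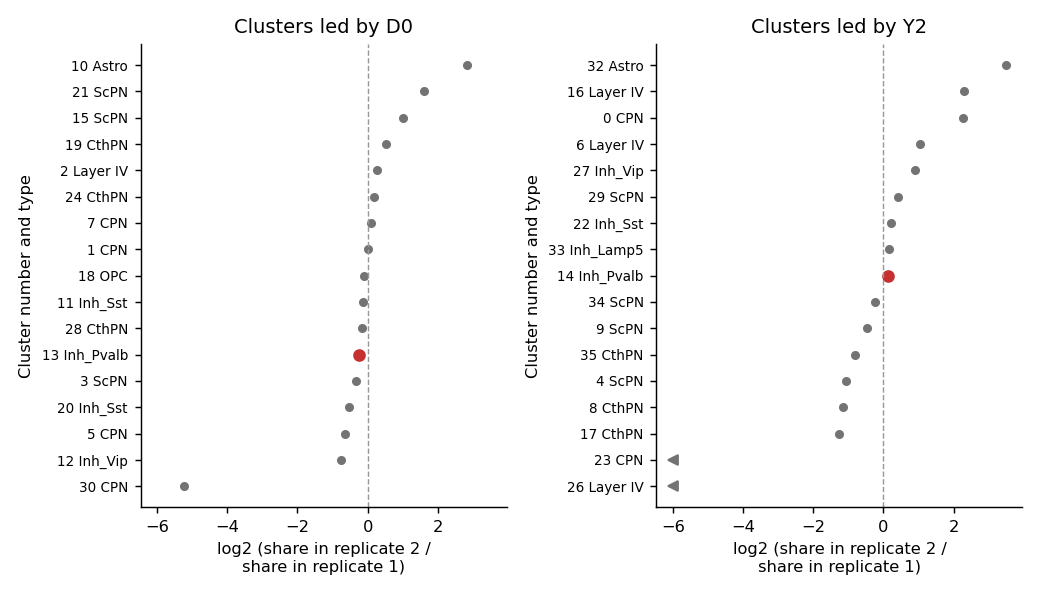
Log2 of a cluster's share in replicate 2 over its share in replicate 1 (x axis) for each cluster (y axis, cluster number and annotated type), for clusters led by D0 (left) and by Y2 (right), with Inh_Pvalb in red and triangles at the left edge for 2 clusters that held no nuclei of Y2 replicate 2. The Inh_Pvalb clusters lie close to 0, at -0.24 (D0) and 0.12 (Y2), while cluster 30 (CPN) lies at -5.24 and cluster 32 (Astro) at 3.49.

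The mean share of Inh_Pvalb among all nuclei was 6.14% ± 0.722 (SD, n = 2) in neonates, against 6.30% ± 0.377 (SD, n = 2) in adults. On the log2 scale the mean share differed by 0.04 between Y2 and D0, the smallest of the 9 types found at both ages. This mean joins opposite signs, with Y2 less D0 at -0.619 points in batch 1 and 0.934 points in batch 2. The next smallest difference was that of Layer IV neurons (0.62), and the largest was that of oligodendrocyte precursor cells (OPC, -4.37). Over neurons only, neonates had 6.95% and 6.41%, and adults had 6.05% and 6.82%. Ages overlapped on both scales. Inh_Pvalb was the 6th and 8th most frequent of 10 types in the D0 libraries and the 5th in both Y2 libraries.

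Against its sister lineage from the medial ganglionic eminence, Inh_Pvalb was by the authors' labels the less frequent type in neonates and the more frequent in adults. Neonates (replicates 1 and 2) had 0.612 and 0.603 Inh_Pvalb nuclei per Inh_Sst nucleus, whereas adults had 2.46 and 2.29. Both adult libraries thus lay far above both neonatal libraries. Expressed as a share of Inh_Pvalb and Inh_Sst together, Inh_Pvalb was 37.8% ± 0.239 (SD, n = 2) in neonates and 70.4% ± 1.01 (SD, n = 2) in adults. Within batches the adult ratio was 4.01-fold the neonatal one in batch 1 and 3.80-fold in batch 2.

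The replicates of this ratio differed by no more than counting error. Their log2 gap was 0.02 at D0, where counting alone gives an SE of 0.11, and 0.10 at Y2, where it gives 0.18. Among the 36 pairs of types found at both ages, Inh_Pvalb with Inh_Sst had the smallest spread between replicates (pooled SD 0.05 on the log2 scale, against a median of 0.96). It also had the largest age difference relative to its own spread, a rank that rests on the same gaps. The other ratios of Inh_Pvalb had pooled SDs from 0.42 (Layer IV) to 2.28 (astrocytes).

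Age differences of ratios were tested in 1 limma fit over all 45 pairs of the 10 types, after adding 0.5 nuclei to each count, with Benjamini-Hochberg adjustment over the 45 and a threshold of 0.05. In that fit 13 of 45 pairs passed (28.9%), of which 9 were the pairs with Inh_Lamp5, an interneuron type listed for 0 nuclei at D0. Of the 9 pairs with Inh_Pvalb, 1 passed, that with Inh_Lamp5. An unadjusted p under 0.05 was found for 4 of these 9 and for 22 of all 45 pairs. With the replicate number as a block, which pairs libraries of a batch, 26 of 45 pairs passed, 3 of them with Inh_Pvalb (Inh_Lamp5, Inh_Vip and OPC). The SE was larger there for Inh_Vip (0.94 against 0.78) and smaller for OPC (1.00 against 1.34). That setting used 20.6 degrees of freedom against 4.83, of which 19.6 came from the spread over pairs that share types. The lower p for Inh_Vip thus rests on this shared estimate. The log2 ratio of Inh_Pvalb to Inh_Sst was higher at Y2 by 1.96 (SE 0.72, adjusted p = 0.0878), 3.90-fold with a 95% interval of 1.07 to 14.2, and did not pass. The fit draws its error in part from the spread of all pairs, and the replicates of this ratio alone give an SE of 0.05. That value rests on 2 gaps that were both smaller than counting error, so it understates the error. A fit over the 6 pairs of interneuron types, chosen after the data were seen, gave the same difference with an adjusted p of 0.00125. An exact permutation of the 4 libraries gave p = 0.333, which is the smallest value that 2 against 2 allow.

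**Figure D2:**
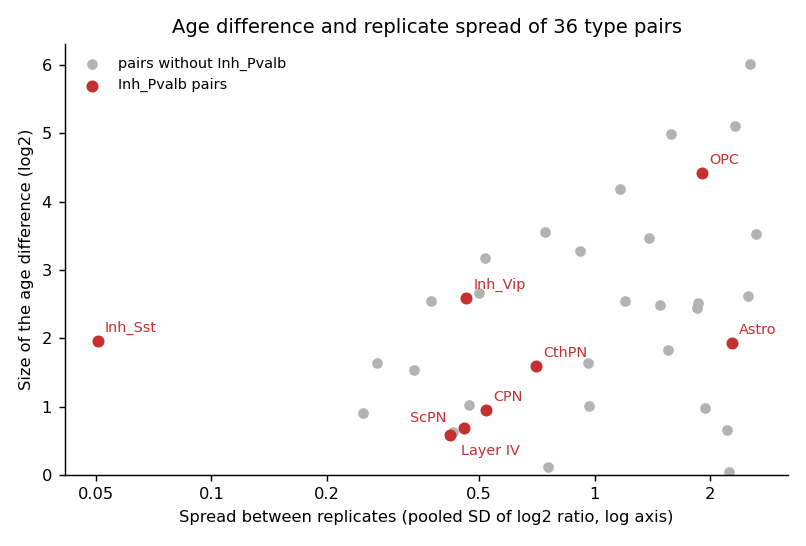
Size of the age difference of the log2 ratio (y axis) against the spread between replicates (x axis, pooled SD of the log2 ratio, log axis) for the 36 pairs of types found at both ages, with the 8 Inh_Pvalb pairs in red and labelled by the other type. Inh_Pvalb with Inh_Sst lies alone at the left, at a spread of 0.05 and an age difference of 1.97 (no nuclei added), while the pair with OPC lies at 1.90 and 4.41.

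The Inh_Sst nuclei of D0 came from clusters 11 and 20, and the ratio was recomputed against each. Cluster 11 alone gave 0.788 and 0.734 Inh_Pvalb nuclei per nucleus in D0 replicates 1 and 2, and cluster 20 alone gave 2.75 and 3.39. The single Y2 cluster of Inh_Sst, cluster 22, gave 2.46 and 2.29. Inh_Pvalb as labelled was therefore outnumbered at D0 by cluster 11 taken alone as well. The D0 ratio depends on how the authors divided neonatal interneurons into types, which could not be checked without gene values. No setting counted cluster 20 as Inh_Pvalb, so that case was not tested. With cluster 20 counted as Inh_Lamp5, the difference in log2 ratio was 1.64 (limma, adjusted p = 0.152).

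Against Inh_Vip the ratio was farther apart between the ages but also between the animals. D0 replicates 1 and 2 held 0.697 and 0.990 Inh_Pvalb nuclei per Inh_Vip nucleus, and Y2 replicates 1 and 2 held 6.52 and 3.81. The ages did not overlap, and in each age the counting intervals of the replicates were apart as well. The Y2 ratio was 9.35-fold that of D0 in batch 1 and 3.85-fold in batch 2. The log2 difference of 2.58 (SE 0.78) did not pass in limma (adjusted p = 0.0554, against 0.0250 with the replicate block and 0.0333 without Y2 replicate 2). Over all alternatives the adjusted p ran from 0.00293 to 0.303, and for Inh_Sst from 0.00125 to 0.402.

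Inh_Lamp5, the type that is named for LAMP5, was listed only at Y2. Y2 replicates 1 and 2 held 4.52 and 4.41 Inh_Pvalb nuclei per Inh_Lamp5 nucleus. At D0, where 0 nuclei were counted, a limit of 3 per library was assumed, at which the ratio would be 144 and 265. With this limit and the Y2 ratios as counted, the adult ratio would be 31.8-fold lower in batch 1 and 60.2-fold lower in batch 2. These folds leave out the counting error of Y2, with exact 95% intervals of 3.51 to 5.88 and 3.70 to 5.29. The exact 95% lower limits at D0 were 116 and 215, so the folds are not lower limits. The adjusted p of 0.00194 (limma) depends on the 0.5 nuclei added to the empty D0 counts, and with cluster 20 counted as Inh_Lamp5 it was 0.507. Inh_Vip and Inh_Lamp5 are often grouped as caudal lineages, although part of the LAMP5 cells of primates may have another origin. Inh_Pvalb nuclei per nucleus of this group were 0.697 and 0.990 at D0 and 2.67 and 2.05 at Y2.

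Against all other interneurons together, Inh_Pvalb was 0.326 and 0.375 per nucleus in D0 replicates 1 and 2. In Y2 replicates 1 and 2 it was 1.28 (exact 95% interval 1.09 to 1.51) and 1.08 (0.969 to 1.21). Inh_Pvalb thus outnumbered the other 3 interneuron types combined in Y2 replicate 1, while in Y2 replicate 2 the interval included equal numbers. The ages did not overlap, and the exact permutation test gave p = 0.333. The Y2 ratio was 3.92-fold that of D0 in batch 1 and 2.88-fold in batch 2.

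**Figure D3:**
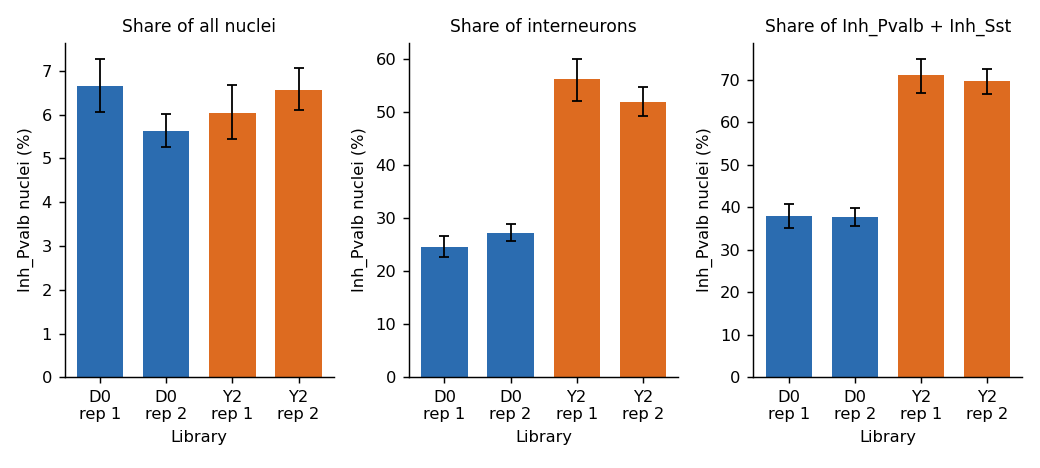
Share of Inh_Pvalb (%, y axis) per library (x axis, D0 in blue, Y2 in orange) among all nuclei, among interneurons and among Inh_Pvalb and Inh_Sst nuclei together, with 95% Wilson intervals as bars. The share of all nuclei stays between 5.63% and 6.65% in the 4 libraries, while the share of Inh_Pvalb and Inh_Sst is 38.0% and 37.6% at D0 and 71.1% and 69.6% at Y2.

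Projection neurons are the glutamatergic cells that parvalbumin interneurons inhibit. Each Inh_Pvalb nucleus was matched by 10.3 and 11.9 projection neuron nuclei in neonates, and by 14.7 and 12.7 in adults. The Y2 value was 1.43-fold that of D0 in batch 1 and 1.07-fold in batch 2, with an exact permutation p of 0.333. The same quantity for Inh_Sst was 6.32 and 7.20 at D0 and 36.2 and 29.2 at Y2. For Inh_Vip it was 7.20 and 11.8 at D0 and 96.2 and 48.6 at Y2. The test of the difference between Inh_Pvalb and each of these types is that of their ratio above, and neither passed.

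Against single projection neuron types the Inh_Pvalb ratio was higher at Y2 for 1 type and lower for 3, with the same direction in both batches for all 4. For Layer IV the direction in batch 1 turned once neuronal clusters found almost only in 1 library were left out. None of these 4 ratios passed the test. Callosal projection neurons (CPN), which connect the hemispheres, gave the ratio that was higher. Neonates had 0.181 and 0.185 Inh_Pvalb nuclei per CPN nucleus (replicates 1 and 2), and adults had 0.505 and 0.246. The D0 animals were nearly equal and the Y2 animals lay 2.06-fold apart, yet the ages did not overlap. The log2 difference was 0.95 (SE 0.79, adjusted p = 0.357, limma), 2.79-fold in batch 1 and 1.33-fold in batch 2. Cluster 23, a CPN cluster found in Y2 replicate 1 only, held 360 of the CPN nuclei of that library. With library-specific neuronal clusters left out, a setting chosen after the data were seen, the ratio of Y2 replicate 1 became 1.09.

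Corticothalamic projection neurons (CthPN), which project to the thalamus, gave the largest difference in the other direction. Neonates had 1.28 and 0.849 Inh_Pvalb nuclei per CthPN nucleus (replicates 1 and 2), and adults had 0.222 and 0.535. At D0 Inh_Pvalb was thus the more frequent type in 1 animal and the less frequent in the other, and in both adult libraries it was the less frequent. The log2 difference was -1.60 (SE 0.85, adjusted p = 0.194, limma). The D0 ratio was 5.78-fold that of Y2 in batch 1 and 1.58-fold in batch 2.

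For subcerebral projection neurons (ScPN), which project below the cerebrum, the ratio was 0.400 and 0.315 at D0 and 0.164 and 0.294 at Y2. The ages came within 1.07-fold of each other in batch 2, where their counting intervals overlapped. The log2 difference was -0.69 (SE 0.78, adjusted p = 0.479, limma).

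Layer IV neurons are the main recipients of thalamic input, which parvalbumin interneurons also receive. Inh_Pvalb nuclei per Layer IV nucleus were 0.661 and 0.461 at D0 and 0.462 and 0.293 at Y2, so the higher Y2 library stood just above the lower D0 library. Within batches neonates had the higher ratio, by 1.43-fold and 1.57-fold. Cluster 26, a Layer IV cluster of 253 nuclei, was found in Y2 replicate 1 only. Without library-specific neuronal clusters the ratio of that library was 0.705, above the 0.661 of D0 replicate 1, so the direction in batch 1 turned and the log2 difference was -0.28. The log2 difference was -0.58 (SE 0.77, adjusted p = 0.529, limma), with a 95% interval of -2.58 to 1.41.

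**Figure D4:**
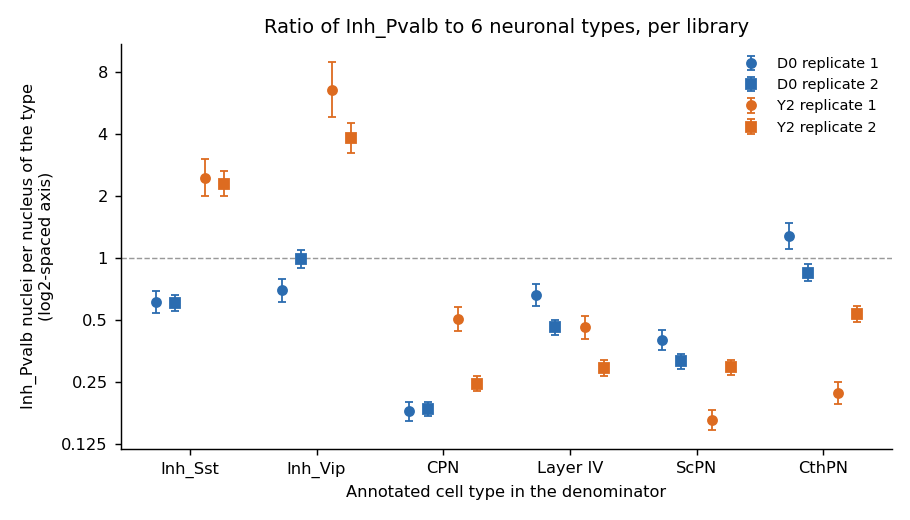
Inh_Pvalb nuclei per nucleus of each of 6 neuronal types (y axis, log2-spaced; x axis, the other type) per library, with blue for D0 and orange for Y2, replicate 1 drawn as a circle, replicate 2 as a square and exact 95% intervals of the counts as bars. Ages are apart for all types but Layer IV, and the replicates lie closest for Inh_Sst, at 0.612 and 0.603 (D0) and 2.46 and 2.29 (Y2).

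The order of the 6 ratios also differed between ages. At D0 the ratio to CPN was lowest and that to ScPN next lowest in both libraries. The ratio to CthPN was highest in replicate 1 and that to Inh_Vip in replicate 2. At Y2 the ratio to Inh_Vip was highest and that to Inh_Sst next in both libraries. The order of the projection neuron types below them was not the same in the Y2 libraries, with ScPN lowest in replicate 1 and CPN lowest in replicate 2. For 7 of the 9 Inh_Pvalb pairs the D0 and Y2 ratios were apart in all libraries, where this held for 77.8% of all 45 pairs.

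Glial ratios were bounded by few nuclei and by wide spread between animals. Inh_Pvalb nuclei per OPC nucleus, the precursors of myelinating cells, were 2.23 and 2.03 at D0. In the Y2 libraries, with 2 and 56 OPC nuclei, the ratio was 170 (exact 95% interval 46.6 to 1405) and 12.1. The log2 difference of 4.25 did not pass (adjusted p = 0.0604, limma) but did with the replicate block (0.00134), without Y2 replicate 2 (0.00716) and on the arcsine scale (0.0365). With a library left out the difference ran from 2.50 (without Y2 replicate 1) to 5.998 (without Y2 replicate 2), with precision weights it was 2.68, and over all alternatives its adjusted p ran from 0.00134 to 0.256. Inh_Pvalb nuclei per astrocyte nucleus were 5.01 and 0.596 at D0 and 21.2 and 2.05 at Y2. The astrocyte ratio was 4.23-fold and 3.44-fold higher at Y2 within batches, but the animals of 1 age lay 8.41-fold (D0) and 10.3-fold (Y2) apart. The log2 difference of 1.91 had an adjusted p of 0.357 (limma) and ran from 0.25 (without Y2 replicate 1) to 3.58 (without Y2 replicate 2) with a library left out.

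**Figure D5:**
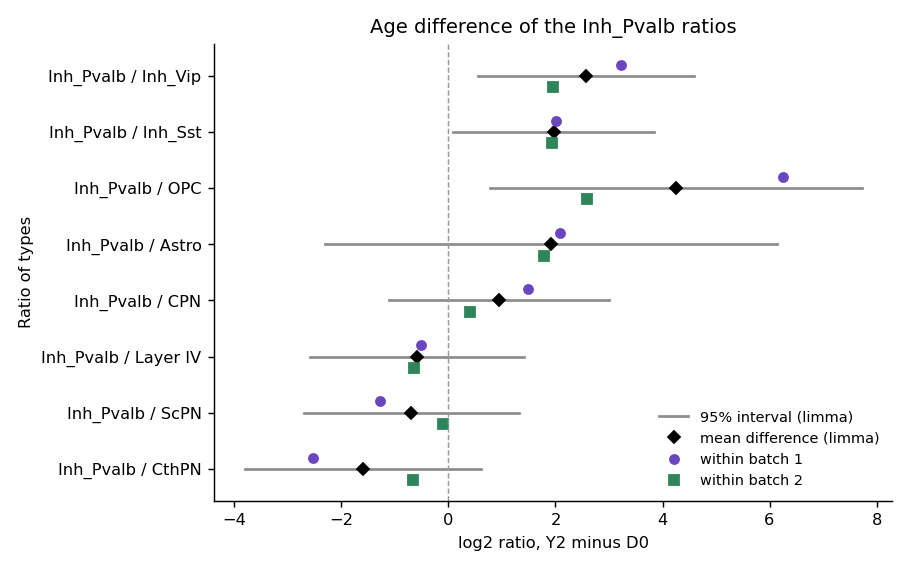
Difference of the log2 ratio between Y2 and D0 (x axis) for 8 ratios of Inh_Pvalb to another type (y axis), with the limma mean as black diamonds, its 95% interval as grey lines, and the difference within batch 1 (circles) and batch 2 (squares). The batches lie together for Inh_Sst (2.00 and 1.93) and Layer IV (-0.52 and -0.65) and far apart for OPC (6.25 and 2.58) and CthPN (-2.53 and -0.66).

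Nuclei were retained by the authors after filters on detected genes and on the fit of a batch correction, so these ratios describe retained nuclei. A lower number of one type and a lower rate of retention of that type cannot be told apart here. The ratios also depend on the labels, with Inh_Lamp5 listed only at Y2 and Inh_Sst in 2 clusters at D0 and 1 at Y2. Libraries of 1 age also differed in projection neurons. Y2 replicate 1 held 671 CPN and 1528 CthPN nuclei, and Y2 replicate 2 held 2762 and 1268. Whether labelling or the tissue sampled differed between ages was not tested.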

How the data were processed

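Single-nucleus RNA sequencing libraries were counted by the authors with Cell Ranger 2.1.0 (per the labels) against a marmoset pre-mRNA transcriptome, aggregated and thinned to equal complexity. In Seurat they filtered nuclei by detected genes, corrected the batch by canonical correlation analysis, dropped nuclei that this explained poorly, clustered all libraries jointly, and named types from marker genes. No source used here gives a treatment of doublets. The deposited table holds labels only (other values: age, replicate, batch, cluster and type per nucleus). Its 36592 rows were each assigned to 1 of 4 libraries by age and replicate, as the sample descriptions name them; sample titles number some libraries differently.

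Nuclei were counted per type and library. Ratios were tested with limma 3.58.1 (R 4.3.3; moderated, two-sided) on log2 counts with 0.5 added, over all 45 pairs of types. Pairs share types and are not independent, and 1 estimate of spread is shared among them. Single values were compared by two-sided exact permutation tests, whose smallest p is 0.333. Replicate numbers pair libraries through the deposited batch column, and deviations from the age means correlated within pairs (r = 0.44 over 9 types, not tested). Astrocytes deviated far in the same direction at both ages, with log2 shares of replicate 2 over replicate 1 of 2.83 and 3.49. Inh_Pvalb deviated in opposite directions (-0.24 and 0.12). The correlation without astrocytes was not computed, so r does not show that pairing holds for Inh_Pvalb. Per-library ratios carry exact 95% binomial intervals and shares Wilson intervals, which cover counting error only; half-widths of the Inh_Pvalb share were at most 0.623 points over all nuclei and 3.95 points over interneurons. For a count of 0 the limit used was 3 nuclei. Counting was done in pandas 2.3.3 and scipy 1.17.1 under Python 3.11.15. Every annotated type was named, with the clusters that hold Inh_Pvalb or lie beside them in rank; clusters 0, 11, 17, 18, 20, 22, 23, 26, 30 and 32 were picked once values were known. The type and the comparisons were chosen with earlier results of these data known.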

Additional observations from a re-analysis of the deposited data

Results flagged for a closer look

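The Inh_Pvalb share of all nuclei was lower in the adult within batch 1, by -0.619 percentage points (Y2 less D0), and higher within batch 2, by 0.934 points. The share of all neurons did likewise, at -0.899 points for batch 1 and 0.406 points for batch 2. These opposite signs were what drew attention. A batch has 1 library of each age, so whether batches truly differ was not tested.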

How the results depend on the processing

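The 6 ratios to neuronal types kept their direction in all 74 alternatives, and in 68 their side of the threshold. In part this was fixed in advance. The replicate block and leaving out types under 10 nuclei cannot change the difference of any of the 6. Interneuron pairs only cannot change that of Inh_Sst or Inh_Vip. Library-specific neuronal clusters enter only the ratios to CPN and Layer IV. None of the 6 passed in the main fit, so keeping their side means not passing. Neither count therefore measures how robust the ratios are. The ratio to Inh_Sst passed on the arcsine scale (difference 0.33, adjusted p = 0.0286, limma) and over interneuron pairs only (1.96). The ratio to Inh_Vip passed on the arcsine scale (0.41), over interneuron pairs only (2.58), with the replicate block (2.58, adjusted p = 0.0250) and without Y2 replicate 2 (2.96). The replicate block changed no other call among the 6. With a library left out the log2 difference ran from 1.91 to 2.01 for Inh_Sst, 2.20 to 2.96 for Inh_Vip, 0.43 to 1.47 for CPN, -0.91 to -0.26 for Layer IV, -1.11 to -0.27 for ScPN and -2.23 to -0.96 for CthPN. For summed types it ran from 1.63 to 1.87 (other interneurons), -0.41 to -0.20 (projection neurons) and -0.09 to 0.17 (all other nuclei, 0.04 with all libraries). The last was negative without D0 replicate 2 (-0.0854) and without Y2 replicate 2 (-0.0218). For 2 of these sums, other interneurons and projection neurons, the batch-wise exact sign-flip test gave p = 0.5, the smallest possible with 2 batches.

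Of 45 pairs 13 passed, 1 with Inh_Pvalb. These counts were 26 and 3 with the replicate block, 20 and 4 on the arcsine scale, and 5 and 3 over the 6 interneuron pairs. They were 0 and 0 with no count added (36 pairs), with precision weights, with types under 10 nuclei left out (28 pairs) and with cluster 20 counted as Inh_Lamp5. In these 4 settings 13, 17, 9 and 14 pairs had an unadjusted p under 0.05. With a library left out they ran from 7 to 25 and from 1 to 3, with the lowest count without D0 replicate 2 and the highest without Y2 replicate 2. The cause was not tested. No count added and types under 10 nuclei left out both remove the 9 Inh_Lamp5 pairs. The latter setting also removes the pairs with OPC, which had 2 nuclei in Y2 replicate 1. Of the 13 pairs that passed in the main fit, 4 did not hold Inh_Lamp5. Interneuron pairs and library-specific neuronal clusters were chosen after the data were seen.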
